A study of Homo sapiens with 6 samples.

Results

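The genes of the proteasome were examined in A549 cells, an established human lung adenocarcinoma line, after knockdown of the RNA helicase DDX17. Rows of the read table were taken when they were protein coding, carried a symbol beginning with PSMA, PSMB, PSMC, PSMD, PSME, PSMF or PSMG and a digit, were neither PSMB8 nor PSMB9, and passed the expression filter of edgeR. Of 29476 rows, 48 had such a symbol, and 47 of these were among the 15615 genes tested. The row left out was PSMB11, a subunit of thymic proteasomes. The 47 rows held 44 proteasome genes, PSMC3IP, whose product is a partner of meiotic recombinases and no proteasome subunit, and 2 read-through genes that carry the symbols PSMA1 and PSMA2.

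The proteasome is the protease complex that degrades proteins tagged with ubiquitin. Its barrel-shaped core is built from outer rings of alpha subunits and inner rings of beta subunits, of which PSMB5, PSMB6 and PSMB7 carry the catalytic sites. A regulatory particle binds the end of the barrel: its base holds a ring of ATPases, PSMC1 to PSMC6, that unfold substrates, and its non-ATPase subunits recognise ubiquitin and remove it. Dedicated chaperones assemble both parts and are absent from the finished enzyme, and other activators or an inhibitor can bind the core instead. Transcription of the subunit genes is known to be raised together by the factor NFE2L1 when proteasome activity falls short.

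The control group (siCtrl) held 3 libraries from A549 cells transfected with a nontargeting siRNA, and the knockdown group (siDDX17) held 3 libraries from A549 cells transfected with a single siRNA against DDX17. Both groups were grown in the same medium and received Lipofectamine 2000. The treatment field of the labels calls the control a plasmid, while the titles and the study's methods name an siRNA. The labels give a harvest at 48 h after transfection for RT-qPCR, and no other time is given for the RNA-seq libraries. The study's methods call the libraries of a group biological replicates.

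Library totals ranged from 30658136 to 39182371 reads. DDX17 was measured first as a check of the labels: it stood at 177, 184 and 206 CPM in siCtrl and at 32.1, 30.8 and 30.4 in siDDX17, where CPM are read counts scaled to a common library size with edgeR's TMM factors. The difference was -2.60 on the log2 scale (SE 0.07, adjusted p = 5.89e-11, edgeR quasi-likelihood test with Benjamini-Hochberg adjustment over all genes tested, used for every adjusted p here). The epithelial keratins KRT8 and KRT18 were high in all libraries, at 2625 to 3416 and 2161 to 2683 CPM, whereas EPCAM was low, at 0.738 to 2.28. The leukocyte marker PTPRC, the endothelial marker PECAM1, the pericyte marker PDGFRB and the smooth muscle marker MYH11 stayed at or below 0.311, and the fibroblast collagen COL1A1 was at 2.46 to 3.55. In bulk RNA, fewer cells and less RNA per cell cannot be told apart.

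Most proteasome genes differed little between the groups, and a few single genes differed by much more than the rest. The ATPase gene PSMC3 rose 1.84-fold, whereas PSMD9, which encodes an assembly chaperone of the ATPase ring, fell to 0.383 of its control level. PSMG4, PSMD14, PSMD7 and PSMF1 were also higher, by up to 1.35-fold. The lower members included the activators PSME3 and PSME4, the chaperone PSMG3, the ATPases PSMC5 and PSMC4 and 3 beta subunits. The sign and size of a shift over the whole list depended on the scaling of the libraries, as given below.

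At an adjusted p under 0.05, 5 of 47 rows (10.6%) were higher and 16 (34%) lower in siDDX17, and 26 did not pass. Among all genes tested, 24.5% were called higher and 24.3% lower. Of the 44 proteasome genes without the read-through rows and PSMC3IP, 5 were higher and 14 lower. When an absolute log2 fold change over 1 was also required, no member was higher and 1, PSMD9, was lower, beside 4.65% and 2.92% of all genes. At the limits given in the study's methods (p under 0.01 and a fold change over 1.5), 1 member, PSMC3, was higher and 3 were lower, beside 11% and 8.03% of all genes. The members lower at those limits were PSMD9, PSMC3IP and the PSMA2 row that holds few reads.

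The values of the groups did not overlap for 8 members that were higher and 19 that were lower, which is 17% and 40.4% of the list, beside 28.8% and 27.7% of all genes. The median log2 fold change over the members was -0.10, against 0.0051 over all genes, and the median of the absolute log2 fold change was 0.147 against 0.294. For the 44 proteasome genes alone, the median was -0.065, and 18.2% were higher and 38.6% lower without overlap. Small differences could pass the test where the replicates lay close together. PSMF1, at 203, 203 and 200 CPM in siCtrl and 221, 231 and 216 in siDDX17, was called at a log2 fold change of 0.14 (SE 0.05, adjusted p = 0.0428), but passed in 7 of the 16 alternatives.

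**Figure D1:**
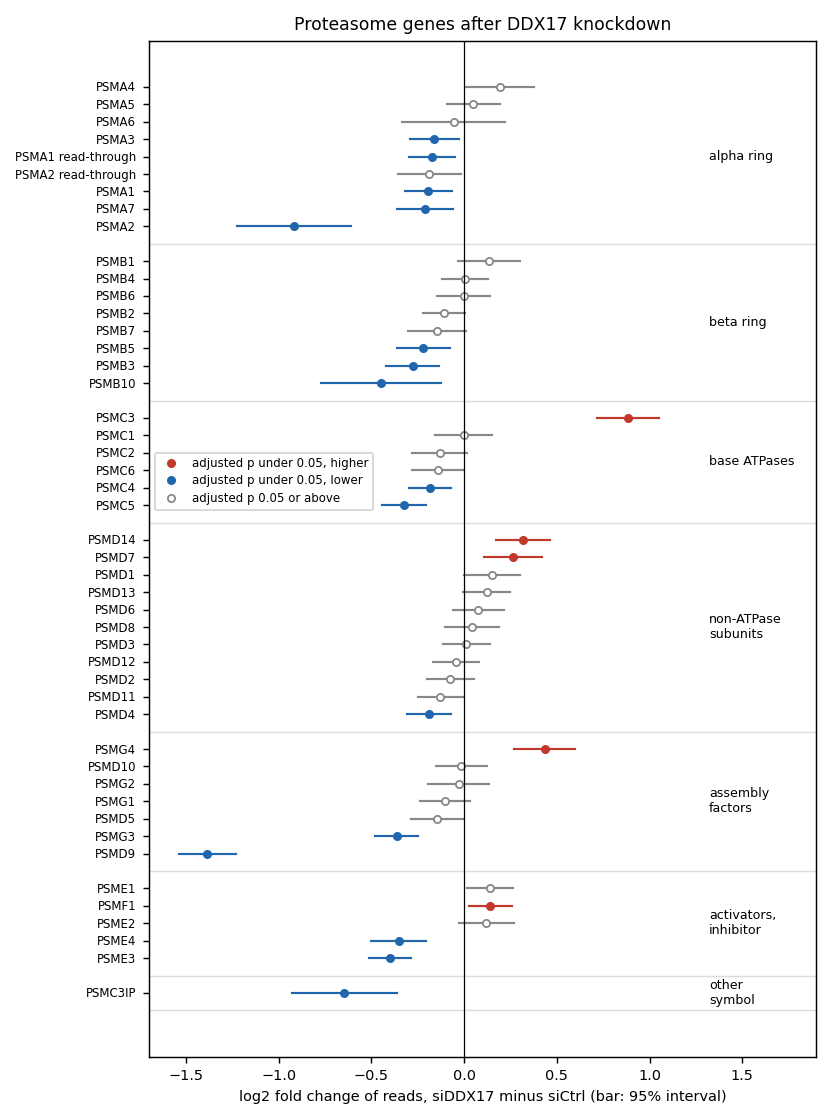
Log2 fold change of reads in siDDX17 minus siCtrl (horizontal axis) for the 47 proteasome rows, grouped by role; points are edgeR estimates and bars their 95% intervals. Filled points passed an adjusted p under 0.05 (red higher, 5 rows; blue lower, 16 rows), and PSMC3 at 0.88 and PSMD9 at -1.38 lie farthest out.

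The direction over the list turned with the scaling. TMM factors were 0.934 to 0.985 in siCtrl and 1.03 to 1.06 in siDDX17, so that scaling by the raw library total moved fold changes upward, by 0.122 at the median gene on the log2 scale. With raw totals, 16 members were higher and 8 lower, at 33.5% and 16% of all genes, and the median member stood at 0.019. Set beside all genes, lower calls were more frequent among the members with TMM (34% against 24.3%) and about as frequent with raw totals (8 of 47 rows against 16%). All 21 members called with TMM kept their sign under each of the 16 alternatives that gave them a value, and 13 of them were still called with raw totals. The members whose sign depended on the alternative were 14 of the 47, and none of them had passed the test.

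The first control library, siCtrl 1, held the lowest of the 3 siCtrl values for 37 of the 47 members and the highest for 3. It was also the lowest control for each gene of the CCT chaperonin, described below. How often it was lowest over all genes was not counted, so this is not shown to be particular to the list. Members took 0.650% of all reads in siCtrl 1, 0.687% and 0.704% in the other control libraries, and 0.714%, 0.708% and 0.708% in siDDX17. The share of reads was therefore above all control libraries in each siDDX17 library, while the sum of TMM-scaled CPM, 7109 ± 439 in siCtrl and 6811 ± 86.5 in siDDX17 (SD, n = 3), was lower. Without siCtrl 1, 5 members were higher and 24 lower, and all 21 members called with it were still called.

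**Figure D2:**
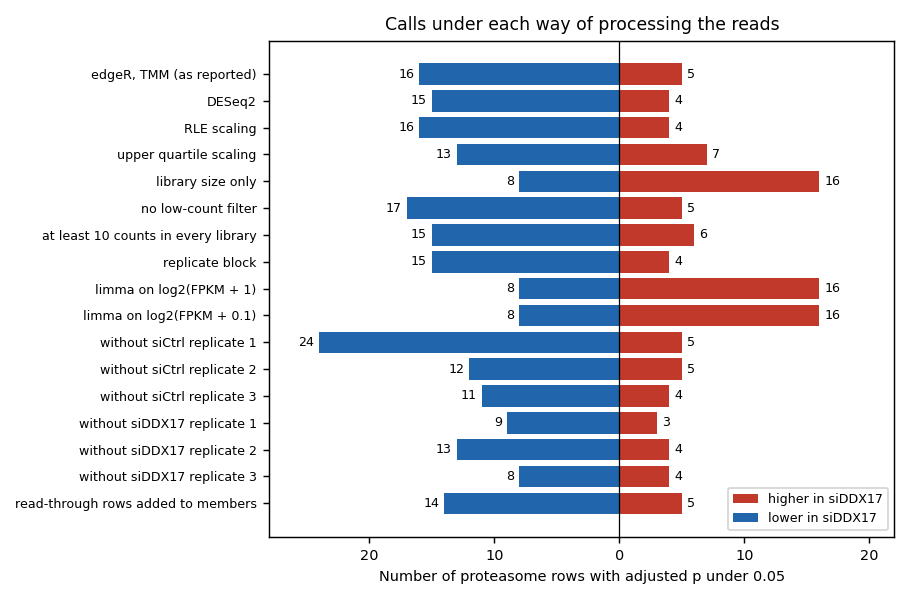
Number of proteasome rows with an adjusted p under 0.05 (horizontal axis; red to the right higher in siDDX17, blue to the left lower) under the reported fit and 16 alternatives. Scaling by library size and both FPKM fits gave 16 higher and 8 lower, and leaving out siCtrl 1 gave 5 higher and 24 lower.

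The alpha ring, which gates entry to the core, held 9 rows, of which none was higher and 5 (55.6%) were lower. Over all genes these shares were 24.5% and 24.3%. The 5 rows are not 5 separate genes: they include both PSMA1 rows, which overlap, and the PSMA2 row with few reads. With raw library totals, 2 were higher and 1 lower, and of the 5 only the small PSMA2 row was still called. The median log2 fold change of the rows was -0.17, and -0.051 with raw totals. With read-through rows summed to their members, it was -0.16. PSMA7 fell from 317, 373 and 388 to 313, 313 and 305 CPM (log2 fold change -0.21, SE 0.07, adjusted p = 0.0246), and it passed in 7 of the 16 alternatives. All siDDX17 values of PSMA7 lay below the control values, but the lowest control value, again in siCtrl 1, was close to them. PSMA4 was the highest of the ring, at 166, 215 and 206 in siCtrl and 238, 212 and 222 in siDDX17, with overlapping groups (log2 fold change 0.19, SE 0.08, adjusted p = 0.076). PSMA3 and both PSMA1 rows were also lower, at -0.16 to -0.19, and PSMA3 passed in 5 alternatives.

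The lowest value of the ring belonged to a row with few reads. The PSMA2 row for ENSG00000106588 stood at 4.02, 4.61 and 5.12 CPM in siCtrl and at 2.65, 2.33 and 2.31 in siDDX17 (log2 fold change -0.92, SE 0.14, adjusted p = 1.50e-04). A read-through gene that runs from PSMA2 into C7orf25, ENSG00000256646, held 34554 reads over the 6 libraries, against 736 in the PSMA2 row. With the reads of both rows summed, PSMA2 was at 153, 185 and 194 in siCtrl and 160, 146 and 157 in siDDX17, a log2 fold change of -0.20 (SE 0.08, adjusted p = 0.0493). The small row and the sum thus differed in size of change.

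Read-through rows took most reads at 3 other members too. PSMA6 held 1261 reads and its read-through row 55548, which is 97.8% of both, and summed they gave a log2 fold change of -0.14 (SE 0.07, adjusted p = 0.127). PSMA1 held 9307 reads and its read-through row with COPB1 27561, or 74.8%, and the sum stood at -0.18 (SE 0.06, adjusted p = 0.0171). At PSMB10, the row read through with CTRL held 4303 reads against 489, or 89.8%. The counting program is not named in the sources used here, so which share of these reads belongs to the subunit's own transcript is uncertain. Pseudogene rows of the family held 131 reads in all, against 1483065 in the member rows.

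In the beta ring, none of 8 rows was higher and 3 (37.5%) were lower, beside 24.5% and 24.3% of all genes. The median was -0.13. With raw totals, PSMB1 and PSMB4 were higher and PSMB3 alone lower, and the median was -0.0025. PSMB5, which carries the chymotrypsin-like site, was at 277, 319 and 323 CPM in siCtrl and at 255, 273 and 261 in siDDX17. Its log2 fold change was -0.22 (SE 0.07, adjusted p = 0.0143), but it did not pass in 7 of the 16 alternatives. PSMB6, with the caspase-like site, was at 274, 311 and 316 against 289, 317 and 292, so that the groups overlapped (log2 fold change -0.0031, SE 0.07, adjusted p = 0.974). PSMB7, with the trypsin-like site, was at 176, 215 and 212 against 181, 183 and 181 (log2 fold change -0.15, SE 0.07, adjusted p = 0.108). Of the catalytic subunits of the standard core, PSMB5 alone was called; whether its change differed from those of PSMB6 and PSMB7 was not tested.

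The PSMB10 row without its read-through row, for an inducible subunit that replaces PSMB7 in immunoproteasomes, was near the bottom of the measurable range. It stood at 2.75, 2.55 and 2.70 CPM in siCtrl and 1.87, 2.11 and 1.89 in siDDX17 (log2 fold change -0.45, SE 0.15, adjusted p = 0.0246), and the groups did not overlap. With its read-through row summed, PSMB10 was at 23.3 ± 1.64 CPM in siCtrl and 21.7 ± 2.24 in siDDX17 (SD, n = 3). The log2 fold change of the sum was -0.10 (adjusted p = 0.366). PSMB3, a structural subunit, fell from 310, 352 and 365 to 274, 295 and 279 (log2 fold change -0.28, SE 0.07, adjusted p = 0.00376). PSMB1 was the highest row of the ring at 0.13 (SE 0.08, adjusted p = 0.169).

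The ring of 6 base ATPases held 1 higher (16.7%) and 2 lower genes (33.3%), beside 24.5% and 24.3% of all genes. The higher one stood far from its partners. PSMC3 (chromosome 11, 47418769 to 47426473 on the minus strand, GRCh38) was at 90.6, 111 and 113 CPM in siCtrl and at 191, 200 and 188 in siDDX17. Each siDDX17 library thus lay far above the highest control library, and the log2 fold change was 0.88 (SE 0.08, adjusted p = 8.60e-07). Across the 16 alternatives it stayed between 0.78 and 1.02 and was called each time. It was higher than the log2 fold change of 93.4% of all genes tested.

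The other ATPases, which form the same ring with PSMC3 at equal copy number in the finished enzyme, lay at or below 0. PSMC5 fell from 248, 271 and 264 to 211, 206 and 208 (log2 fold change -0.33, SE 0.06, adjusted p = 3.01e-04), with no overlap and a call in every alternative. PSMC4 fell from 311, 323 and 317 to 278, 287 and 273 (log2 fold change -0.18, adjusted p = 0.0115) and passed in 11 alternatives. PSMC1, PSMC2 and PSMC6, at -0.0025, -0.13 and -0.14, did not pass. PSMC5 overlaps FTSJ3 on the opposite strand, whose log2 fold change was -0.25, and without a stated use of strand the reads of such pairs cannot be told apart.

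Of the 11 non-ATPase subunits of the regulatory particle, 2 were higher (18.2%) and 1 lower (9.09%), beside 24.5% and 24.3% of all genes. Of their log2 fold changes, 7 were above 0, beside 7901 of 15615 over all genes. The higher genes encode the partners of the deubiquitinase heterodimer of the lid. PSMD14, the catalytic partner that cuts ubiquitin chains off substrates, rose from 84.0, 95.6 and 99.4 to 120, 111 and 116 CPM (log2 fold change 0.32, SE 0.07, adjusted p = 0.00162). PSMD7, its inactive partner, rose from 116, 136 and 141 to 166, 153 and 153 (log2 fold change 0.26, SE 0.07, adjusted p = 0.00898). In both genes the groups did not overlap.

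PSMD4, a ubiquitin receptor, was the lowest of these subunits, at 204, 211 and 216 in siCtrl against 182, 191 and 181 in siDDX17 (log2 fold change -0.19, SE 0.05, adjusted p = 0.0106). It lost its call in 5 of 16 alternatives. PSMD2, the scaffold that docks ubiquitin-binding shuttle proteins, was at 241, 256 and 273 against 245, 250 and 237, with overlapping groups (log2 fold change -0.07, adjusted p = 0.329). The median of the 11 subunits was 0.041, and -0.029 without siCtrl 1. With raw totals it was 0.166, and 7 were higher and none lower, beside 33.5% and 16% of all genes.

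**Figure D3:**
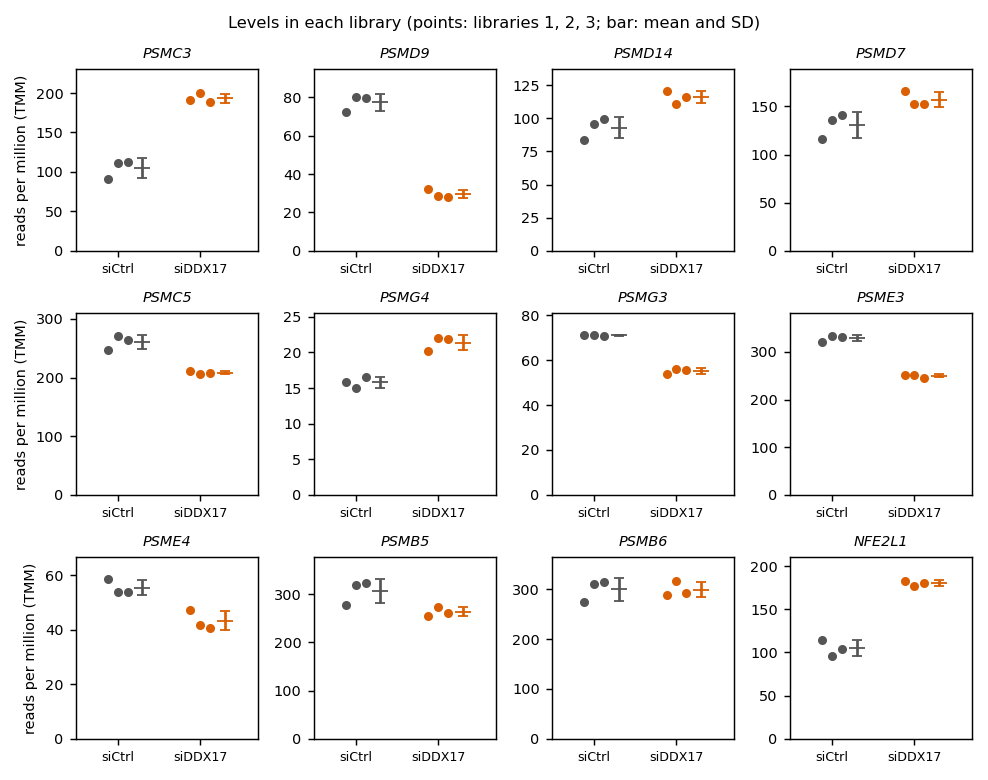
TMM-scaled CPM (vertical axes from 0) in each of the 3 siCtrl and 3 siDDX17 libraries for 11 proteasome genes and NFE2L1; bars beside the points are the mean and SD of the group. In PSMC3 and NFE2L1 all siDDX17 points lie far above the siCtrl points, in PSMD9 far below, and in PSMB6 the groups overlap.

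Among the 7 assembly factors, 1 was higher (14.3%) and 2 lower (28.6%), beside 24.5% and 24.3% of all genes. The list held the largest change of all members. PSMD9, a chaperone known to bind PSMC3 and PSMC6 while the ATPase ring is built, lies on chromosome 12 from 121888732 to 121918297 on the plus strand (GRCh38). It fell from 72.2, 80.1 and 79.6 CPM in siCtrl to 32.3, 28.5 and 28.0 in siDDX17. The lowest control library was thus more than 2-fold above the highest siDDX17 library, and the log2 fold change was -1.38 (SE 0.07, adjusted p = 8.27e-09). It stayed between -1.45 and -1.18 over the 16 alternatives, and only 1.11% of all genes tested had a lower value. The chaperones PSMD5 and PSMD10, which bind other ATPases of the ring, were at -0.15 (adjusted p = 0.0783) and -0.01 (adjusted p = 0.869).

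The chaperones of the alpha ring work as the pairs PSMG1 with PSMG2 and PSMG3 with PSMG4. PSMG3 fell from 71.3, 71.3 and 70.9 to 53.9, 56.1 and 55.7 CPM (log2 fold change -0.36, SE 0.05, adjusted p = 8.47e-05). Its partner PSMG4 rose from 15.8, 15.1 and 16.5 to 20.2, 22.1 and 21.8 (log2 fold change 0.43, SE 0.08, adjusted p = 3.53e-04). Both were called in every alternative, in opposite directions. PSMG1 and PSMG2, at -0.10 and -0.03, did not pass. In GENCODE 44, PSMG4 overlaps SLC22A23 and TUBB2B on the opposite strand, which had log2 fold changes of 0.36 and 0.37, and their part in the PSMG4 value was not tested.

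PSMD9 also held a match to the seed of the DDX17 siRNA. The 7 bases TATTGCT, which pair with bases 2 to 8 of the guide strand of the siRNA given in the study's methods, occurred once in the 3′ UTR of its canonical GENCODE 44 transcript, 1322 bases into 1986. The site is shown because PSMD9 is the member that changed most, at chr12:121917633-121917639 on the plus strand (GRCh38), with 10 bases on either side and the match in capitals.
PSMD9 site: atgggattggTATTGCTgtgtgcttcc
The same 7 bases were in the 3′ UTR of 14.4% of the 13045 tested genes with such a UTR, and in PSMB2 and PSMC1 among the members, whose log2 fold changes were -0.11 and -0.0025. Over the genes with the match, the median was -0.03 on the log2 scale. Its part in the PSMD9 value was not tested, and the methods name no further siRNA against DDX17.

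The nearest tested gene to PSMD9 changed in the same direction. WDR66 starts 294 bases beyond the end of PSMD9 on the same strand, and it stood at 2.01, 1.64 and 1.44 CPM in siCtrl and 0.519, 0.357 and 0.286 in siDDX17 (log2 fold change -2.12, SE 0.27, adjusted p = 2.49e-05). On the other side, HPD, 25135 bases away, was at 0.62 (adjusted p = 0.00141). Around PSMC3, SLC39A13, 2272 bases from it, was at -0.23 (adjusted p = 0.0241) and CELF1, on the other side, at 0.22 (adjusted p = 0.00782). WDR66 and the other neighbours were looked at after the values of PSMD9 and PSMC3 were seen.

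The alternative caps of the core and its inhibitor gave 1 higher (20%) and 2 lower (40%) genes of 5, beside 24.5% and 24.3% of all genes. PSME3, the activator found in the nucleus, fell from 321, 334 and 331 to 251, 251 and 246 CPM (log2 fold change -0.40, SE 0.05, adjusted p = 3.34e-05). PSME4, a nuclear activator known from histone turnover, fell from 58.5, 53.8 and 53.7 to 47.2, 41.9 and 40.7 (log2 fold change -0.35, SE 0.07, adjusted p = 8.31e-04). Neither gene had overlapping groups, and both were called in every alternative. PSME3 overlaps BECN1 on the opposite strand, which was higher, at 0.51.

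PSME1 and PSME2, which form the interferon-inducible activator, were at 0.14 (SE 0.06, adjusted p = 0.0592) and 0.12 (SE 0.07, adjusted p = 0.171). Both passed with raw library totals, where PSMF1, an inhibitor and transport adaptor of the core, was at 0.26. PSMC3IP, which shares only the symbol, was at 9.95, 8.67 and 7.82 in siCtrl and 6.62, 4.86 and 5.37 in siDDX17 (log2 fold change -0.65, SE 0.13, adjusted p = 0.00113). It held 1517 reads and overlaps MLX on the opposite strand, which held 24423 reads and had a log2 fold change of 0.23, and the part of MLX in the PSMC3IP value was not tested.

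Levels of the subunits were compared per length on the deposited FPKM values, which scale fragment numbers by transcript length and library size. In siCtrl the beta ring spanned PSMB3 at 405 ± 29.3, PSMB6 at 315 ± 19.3, PSMB4 at 279 ± 5.98, PSMB5 at 191 ± 13.2, PSMB7 at 188 ± 16.9 and PSMB1 at 169 ± 17.3 (FPKM, SD, n = 3). PSMB5 and PSMB7, and PSMB7 and PSMB1, did not differ from each other beyond their spread. PSMB2 followed at 41.1 ± 0.543 and PSMB10 at 2.0 ± 0.12, the latter without its read-through row. The beta subunits, which stand at equal number in the core, thus differed in FPKM from PSMB3 to PSMB2 by far more than their replicate spread. That spread leaves out the uncertainty of the transcript length. The canonical transcript has 4426 bases for PSMB2 and 762 for PSMB3. Before division by length, PSMB2 stood at 218 CPM in siCtrl, against 342 for PSMB3, 201 for PSMB7 and 172 for PSMB1. Which transcript length these cells use was not tested.

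By role, the median FPKM in siCtrl was 190 for the beta ring, 62.4 for the activators and inhibitor, 60.3 for the non-ATPase subunits, 48.2 for the ATPases and 18.9 for the assembly factors. No median is set beside these for the alpha ring, whose rows are split with read-through genes: PSMA6 was at 3.87 FPKM, and its level was 6.09 CPM alone in siCtrl but 280 CPM with the read-through row. The assembly factors took 0.0336% ± 0.000451 of all reads in siCtrl and 0.0296% ± 0.000663 in siDDX17, without overlap, and of their mean CPM PSMD9 fell by 47.7 and PSMG3 fell by 15.9. The share of the non-ATPase subunits was 0.183% ± 0.00779 in siCtrl and 0.204% ± 0.00187 in siDDX17. That of the ATPases was 0.0957% ± 0.00259 and 0.102% ± 0.00183. Both shares were higher in siDDX17 without overlap, but they rest on raw library totals. As sums of TMM-scaled CPM, both overlapped between the groups. The non-ATPase subunits summed to 1917 ± 115 in siCtrl and 1956 ± 36.8 in siDDX17, and the ATPases to 999.8 ± 51.6 and 982 ± 15.6. The assembly factors stayed lower on that scale without overlap, at 351 ± 13.7 and 284 ± 3.00. Among the ATPases, the FPKM order in siCtrl was PSMC4 at 182, PSMC5 at 117, PSMC3 at 60.6 ± 6.21, PSMC2 at 35.7, PSMC1 at 29.8 and PSMC6 at 22.1. In siDDX17, PSMC3 stood at 122 ± 2.43 and was above PSMC5 at 102 ± 1.96. This order did not hold per kilobase of the canonical transcript, where PSMC3 rose from 68.0 to 125 CPM per kilobase in siDDX17 and stayed below PSMC5 at 157 and PSMC4 at 159. The length behind a deposited FPKM value could differ from the canonical transcript, by a factor of 0.594 to 8.09 with PSMG4 at the upper end. Over the 47 rows, FPKM and CPM per kilobase of the canonical transcript had a Spearman correlation of 0.966, with both scales made from the same reads. The order within the beta ring was the same on both, but both divide PSMB2 by a long transcript.

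**Figure D4:**
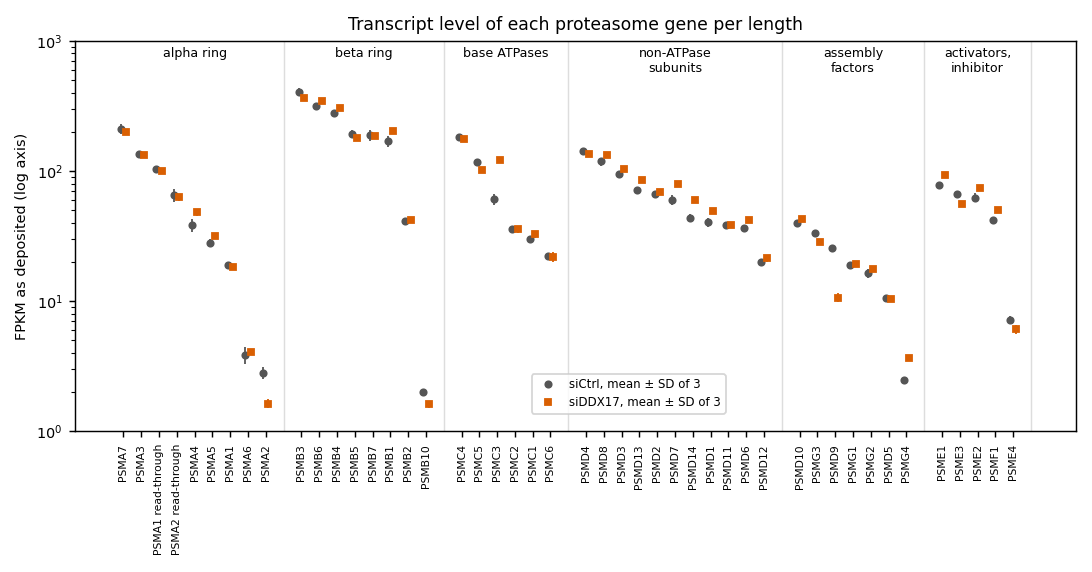
Deposited FPKM (vertical log axis) of 46 proteasome rows by role, as mean ± SD of 3 siCtrl (grey circles) and 3 siDDX17 (orange squares) libraries, ordered by the siCtrl mean. PSMC3 rises from 60.6 to 122, PSMD9 falls from 25.4 to 10.6, and PSMB2 and PSMB10 lie far below the other beta subunits. The PSMB10 value leaves out its read-through row, and PSMB2 is scaled by a long transcript.

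Genes that control or use the proteasome were read from a list of 35, all of which were tested. Of these, 4 were higher (11.4%) and 15 lower (42.9%), beside 24.5% and 24.3% of all genes, and the median was -0.11. With raw totals, 9 were higher and 6 lower, beside 33.5% and 16% of all genes. NFE2L1, the factor that raises proteasome genes, rose from 114, 96.1 and 104 CPM to 183, 177 and 181 (log2 fold change 0.78, SE 0.07, adjusted p = 6.12e-07). DDI2, the protease that activates NFE2L1 protein, was also higher, at 0.54 (adjusted p = 1.66e-04). Of the small MAF partners of NFE2L1, MAFG was lower at -0.76 (adjusted p = 2.84e-06) and MAFF at -0.37 (adjusted p = 0.0243). MAFK lay on the other side, at 0.12, and did not pass (adjusted p = 0.155). NFE2L2, also on this list, was lower at -0.36 (adjusted p = 0.0178). With TMM, no subunit of the core was called higher. In the regulatory particle, PSMC3, PSMD14 and PSMD7 were higher, and PSMC4, PSMC5 and PSMD4 were lower. With raw totals, the core subunits PSMA4, PSMA5, PSMB1 and PSMB4 were also called higher. Whether NFE2L1 had a part in any of these values was not tested.

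The lowest value of this list belonged to an adaptor that binds ubiquitin-tagged proteins. SQSTM1, an autophagy receptor, fell from 2842, 2797 and 2554 to 1128, 1250 and 1152 (log2 fold change -1.21, SE 0.07, adjusted p = 1.42e-08). The ubiquitin receptor ADRM1 was lower at -0.37 (adjusted p = 2.46e-04), as was the proteasome-bound deubiquitinase USP14 at -0.36 (adjusted p = 1.14e-04). POMP, a chaperone for maturation of the core, was at 118, 143 and 136 against 137, 125 and 131, with overlapping groups (log2 fold change -0.02, adjusted p = 0.876).

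Promoter windows from RefSeq (GRCh38.p14, from 250 bases before to 50 bases after each gene's start) were matched by symbol for 38 of the 44 genes. PSMA7, PSMB1, PSMB6, PSMB7, PSMD4 and PSMG3 were not matched. The letters TGACNNNGC, the core of the antioxidant response element to which NFE2L1 with a small MAF protein binds, and CCAAT, the box bound by NF-Y, were searched on both strands. TGACNNNGC was present in 14 of 38 members (36.8%) and in 16.1% of all 27305 symbols with a window. CCAAT was present in 18 members (47.4%) and in 39.7% of all symbols. All symbols included genes that were not tested here, whereas the members had passed the expression filter. The shares thus come from unlike sets, and no difference between them was tested. Of the 14 members with TGACNNNGC, none was higher and 5 were lower. Of the 24 without it, 5 were higher and 6 lower, beside 24.5% and 24.3% of all genes tested. With raw totals, 5 of the 14 were higher and 4 lower, and 10 of the 24 were higher and 2 lower. The shares of all genes were then 33.5% and 16%. These counts are small, and whether the motif goes with a direction was not tested.

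The windows of PSMC3 and PSMD9, the members with the largest changes in each direction, are shown with matches to either motif in capitals. The PSMC3 window, chr11:47426390-47426689 on the minus strand, held a CCAAT at -114 and no TGACNNNGC. The PSMD9 window, chr12:121888540-121888839 on the plus strand, held TGACNNNGC at -149 on the minus strand and at -102 on the plus strand and no CCAAT.
PSMC3: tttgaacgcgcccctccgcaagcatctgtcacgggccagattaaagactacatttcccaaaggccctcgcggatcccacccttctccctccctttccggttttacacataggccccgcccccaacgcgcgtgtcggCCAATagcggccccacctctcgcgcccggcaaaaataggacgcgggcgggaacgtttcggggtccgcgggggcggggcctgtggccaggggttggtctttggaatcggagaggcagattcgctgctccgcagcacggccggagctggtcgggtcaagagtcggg
PSMD9: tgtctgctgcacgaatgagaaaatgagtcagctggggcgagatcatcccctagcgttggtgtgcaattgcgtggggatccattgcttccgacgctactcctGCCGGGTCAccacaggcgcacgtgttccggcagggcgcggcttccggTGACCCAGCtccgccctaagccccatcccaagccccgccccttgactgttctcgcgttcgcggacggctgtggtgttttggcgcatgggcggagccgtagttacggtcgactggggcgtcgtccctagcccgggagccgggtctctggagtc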

How the data were processed

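Per the study's methods, polyadenylated RNA was sequenced from stranded libraries, reads were aligned by TopHat2 to GRCh38, and the authors deposited raw counts of uniquely mapped reads per gene and FPKM values. The counting program, annotation and use of strand are not given in the sources used here. FPKM was absent for 234 genes.

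Counts of the 6 libraries were tested by the quasi-likelihood method of edgeR 4.0.16 (R 4.3.3) after filterByExpr (minimum count 10) and TMM scaling. P-values were adjusted over all 15615 genes. The script was checked on simulated counts. There it recovered 4 of 50 genes changed 1.2-fold, 37 of 50 changed 1.5-fold and 45 of 50 changed 2-fold. Small changes were thus mostly missed in that check, in which far fewer genes were changed than were called here. Locations and transcripts came from GENCODE 44 and promoters from RefSeq.

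Members and gene lists were chosen with earlier results of these data known. Genes were named when they were the extremes of a role, passed with a fold change over 1.5, or had a set function (catalytic subunits, PSMD2, PSMD4, PSMD14, NFE2L1, POMP, ADRM1); the others were chosen after their values were seen. The alternatives were DESeq2 1.42.0, limma 3.58.1 on log2(FPKM + 1) and log2(FPKM + 0.1), other scalings and filters, the replicate block and fits without 1 library. Summing read-through rows and using canonical transcript lengths were added after seeing the data. The result for 1 gene of the pathway list is not reported here.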

Additional observations from a re-analysis of the deposited data

How the results depend on the processing

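The members called higher, 5 as reported, were 16 with raw library totals and 16 in each limma fit on FPKM, and those called lower, 16 as reported, were 8 in each of these. The same settings moved the median of the members from -0.10 to 0.019, 0.024 and 0.025, and gave 2494, 2369 and 2374 genes called lower in all, against 3798. The stricter limits left 0 higher and 1 lower member (log2 fold change over 1), and 1 and 3 (p under 0.01 with a fold over 1.5); at an adjusted p under 0.05 alone, DESeq2 gave 4 and 15. Leaving out 1 library gave 3 to 5 higher and 8 to 24 lower members: 24 without siCtrl 1, 8 without siDDX17 3, 9 without siDDX17 1, and 3 higher without siDDX17 1. The cause was not tested. Of the 21 called members, 10 were called in all 16 alternatives: PSMC3, PSMG4 and PSMD14 higher, and PSMD9, PSMC5, PSMG3, PSME3, PSME4, PSMC3IP and the small PSMA2 row lower. No result changed to the opposite call.

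Libraries with the same replicate number did not deviate together (correlations of 0.00698, 0.0407 and -0.0564), so the numbers were not taken as pairs, and not every library correlated best with its own number. With the replicate number as a block, 4 members were higher and 15 lower. With read-through rows summed, 5 were higher and 14 lower. Depth and 3 libraries a group limit what can be seen of small shifts in single subunits, and p-values measure the spread between these libraries.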

Other observations

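Complexes of similar kind were read beside the proteasome. The COP9 signalosome, which is built like the lid of the regulatory particle and removes the ubiquitin-like protein NEDD8 from cullins, had 2 higher and 3 lower genes of 10, with a median log2 fold change of -0.04. These were 20% and 30% of its genes, beside 24.5% and 24.3% of all genes tested. COPS2 and COPS8 were higher, at 0.37 (adjusted p = 9.42e-04) and 0.32 (adjusted p = 8.79e-04), whereas GPS1, COPS7B and the catalytic subunit COPS5 were lower, at -0.46, -0.38 and -0.35. COPS5 fell from 63.6, 71.3 and 73.7 CPM to 56.6, 53.3 and 53.2 (adjusted p = 5.72e-04, edgeR quasi-likelihood test).

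The CCT chaperonin, a ring that folds actin and tubulin, had 2 higher and 1 lower gene of 8, with a median of -0.01. These were 25% and 12.5% of its genes, beside 24.5% and 24.3% of all genes tested. CCT5 rose from 261, 329 and 327 CPM to 479, 445 and 455 (log2 fold change 0.59, SE 0.08, adjusted p = 5.08e-05), and CCT6A was at 0.26. CCT7 fell from 634, 710 and 705 to 535, 548.7 and 533 (log2 fold change -0.34, SE 0.06, adjusted p = 3.63e-04). In both complexes the library siCtrl 1 held the lowest control value for these genes, save for COPS2. Whether members of the complexes differed from the proteasome genes was not tested.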
